A study of Mus musculus with 4 samples.

Results

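The genes described here are 36 genes of the cardiac sarcomere, its Z-disc and M-band, and the chaperones and ubiquitin ligases that maintain muscle proteins. They were taken by symbol from a fixed list of names, and all 36 were found among the 44628 gene identifiers of the files. They were measured by single-nucleus RNA sequencing (BD Rhapsody), in which the RNA of each nucleus receives a shared barcode and every molecule a unique molecular identifier (UMI). There were 2 control libraries (titled MCM cre/+, with the genotype label wt) and 2 libraries of a Pkp2 conditional knockout (titled PKP2fl/fl MCM cre/+, genotype label pkp2 cko), here called cKO. All mice received tamoxifen, were 8 weeks old by the age label, and gave whole hearts 2 weeks after the injection. Each library pooled the hearts of 2 mice, 1 male and 1 female by the labels, so the library is the replicate (n = 2 per group) and the p-values measure the spread between these pools. The labels call the cells cardiomyocytes, although whole hearts were taken and other nuclei were present. The sources used here do not name the promoter driving MCM cre.

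The sarcomere is the contractile unit of striated muscle. Thin filaments of actin, tropomyosin and troponin are anchored in the Z-disc, thick filaments of myosin and its binding protein C are held at the M-band, and titin spans the distance from one to the other. Proteins of the filamin, LIM and PDZ-LIM families link the Z-disc to actin, to the membrane and to signalling proteins, while chaperones and muscle ubiquitin ligases fold and remove the parts. Pkp2 encodes plakophilin-2, a protein of the desmosome, which holds neighbouring cardiomyocytes together at the intercalated disc.

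Some measurements bear on the labels and come before the results. Pkp2 itself stood at 567 and 553 CPM (UMIs of the gene for every 1e+06 UMIs) in control cardiomyocytes and at 619 and 592 CPM in cKO cardiomyocytes (log2 fold change 0.11, SE 0.14, adjusted p = 0.80). The Pkp2 level does not check the deletion, since the sources used here do not say which exons it removes. Esr1, the estrogen receptor gene of which tamoxifen-inducible Cre proteins carry a part, stood at 75.3 and 62.5 CPM in the control cardiomyocytes against 3658 and 3350 CPM in the cKO ones, although the titles name MCM cre in both groups. Xist, which is transcribed in female cells, had 7 and 22 UMIs in the whole control libraries and 13 and 28 in the cKO libraries, against 5625 to 17307 UMIs of 4 Y-linked genes, although each pool is labelled as holding 1 female. The libraries shared 0 to 2 nucleus barcodes with one another.

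The filters left 2781 and 5979 nuclei of control and 3623 and 6268 of cKO. Cardiomyocyte-like nuclei, named from 15 markers that include none of the 36 genes, made up 52.0% and 42.6% of the control nuclei and 32.6% and 24.9% of the cKO nuclei, and their summed counts were 5018352 and 11128304 UMIs in control and 5316327 and 8406857 in cKO. Different clusters held most cardiomyocytes of each group. A cluster led by Nppb, Nppa and Esr1 held 10.3% and 7.46% of the control cardiomyocytes and 72.1% and 67.6% of the cKO ones. A cluster with Pfkfb1 and Clcn1 among its leading genes held 54.4% and 47.2% of the control and 9.40% and 7.75% of the cKO cardiomyocytes, and a cluster with Cntn5 held 28.8% and 39.3% against 14.7% and 20.3%. A difference between the groups in a cardiomyocyte sum therefore joins a shift between clusters with any change inside them. Summed fibroblast markers in these cardiomyocytes were 285 and 208 CPM in control and 271 and 201 CPM in cKO, and 3 of those 9 markers were higher in cKO. Summed endothelial markers were 238 and 246 CPM against 203 and 206 CPM, with 1 of 9 higher, and summed macrophage markers were 70.9 and 59.9 against 57.4 and 64.4 CPM, with 3 of 9 higher. Of the 11 marker lists of other cell types, 3 were above both controls in both cKO libraries. These were lymphatic endothelial markers (106 and 125 CPM in control, 142 and 178 CPM in cKO, 4 of 6 markers higher), smooth muscle markers (11.8 and 21.2 against 28.4 and 22.7 CPM, 4 of 6 higher) and neural markers (35.9 and 27.2 against 51.0 and 39.5 CPM, 3 of 6 higher, with S100b at 0). The part of these other cell types in the results was not tested.

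The 250 bases before the RefSeq start of 3 of the genes are shown because Pdlim3 and Flnc were the genes of the list that rose in cardiomyocytes and Trim54 had the most negative fold change. They are from RefSeq (GRCm38.p6), on the plus strand, written 5′ to 3′. Capitals mark the letters CATTCC, the core of the M-CAT element bound by TEAD factors, or their reverse complement. This motif was chosen after the 3 windows had been read.
Pdlim3 (chr8:45885237-45885486): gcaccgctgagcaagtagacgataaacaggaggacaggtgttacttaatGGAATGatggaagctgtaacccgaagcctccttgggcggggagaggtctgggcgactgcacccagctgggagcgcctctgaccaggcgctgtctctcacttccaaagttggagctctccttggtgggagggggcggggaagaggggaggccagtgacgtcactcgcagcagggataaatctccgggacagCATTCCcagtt
Flnc (chr6:29432903-29433152): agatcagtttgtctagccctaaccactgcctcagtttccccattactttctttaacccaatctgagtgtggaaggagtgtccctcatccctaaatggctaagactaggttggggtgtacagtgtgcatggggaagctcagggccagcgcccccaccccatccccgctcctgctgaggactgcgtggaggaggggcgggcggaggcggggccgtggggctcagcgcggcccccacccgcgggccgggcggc
Trim54 (chr5:31116362-31116611): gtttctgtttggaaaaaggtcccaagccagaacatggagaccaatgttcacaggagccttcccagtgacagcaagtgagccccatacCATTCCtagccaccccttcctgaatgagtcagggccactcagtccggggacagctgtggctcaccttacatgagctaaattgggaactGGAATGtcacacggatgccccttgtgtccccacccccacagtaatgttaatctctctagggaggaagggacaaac
The Pdlim3 and Trim54 windows held 2 matches each. The Flnc window, 1 of 2 in the table, held 0 that end before its RefSeq start and 1 that crosses that start or lies after it. The RefSeq starts of Pdlim3 and Flnc differ from the GENCODE M21 ones given below. By GENCODE, the Pdlim3 match nearest the RefSeq start lies inside the gene, and the Flnc match lies before the gene. Windows of 300 bases, from 250 before to 50 after the start, were found in the table for 31 of the 36 genes, and 12 of these 31 had the letters on either strand, against 16.6% of all 27025 genes in the table. The 12 include Pdlim3, Flnc and Trim54, whose windows had been read before the motif was chosen. Part of this count was therefore fixed in advance, and it is no test. The CArG box of serum response factor was found in 5 of the 31 (1.81% of all genes) and the MEF2 site in 6 of the 31 (3.70% of all genes), both searched on both strands. A match in the letters is a description of the sequence and no measure of binding.

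Taken as one sum, the 36 genes took up a like share of the cardiomyocyte UMIs in both groups. They gave 57240 and 56697 CPM in control and 56963 and 57138 CPM in cKO, so the groups overlapped. Within that sum Pdlim3 and Flnc, a pair of Z-disc and actin linker genes, both rose, with log2 fold changes of 1.14 and 1.10, and no gene of the list fell past the threshold. The test was edgeR's quasi-likelihood test on the sums per library with Benjamini-Hochberg adjustment over the 15386 genes tested in cardiomyocytes, at an adjusted p of 0.05. All 36 genes passed the expression filter and 2 were called, against 2.84% of all genes tested (1.29% higher and 1.55% lower in cKO). At an unadjusted p under 0.05 there were 12, of which 7 were higher and 5 lower, where 14.2% of all genes had such a p. The 2 cKO libraries lay above both control libraries for 13 genes and below them for 7, and 22.3% of all genes tested lay above, 21.2% below and 43.4% in either direction. The median log2 fold change was 0.10 over the 36 genes and 0.0029 over all genes tested. DESeq2, run on the same sums, called 7 of the 36, of which 1 was lower in cKO (3.93% of all genes). Without an expression filter edgeR called 8 (2.17% of all genes). The count was 4 without control 1 (3.72% of all genes) and 7 without cKO 2 (3.92% of all genes). Both Pdlim3 and Flnc were called in each of these settings.

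**Figure D1:**
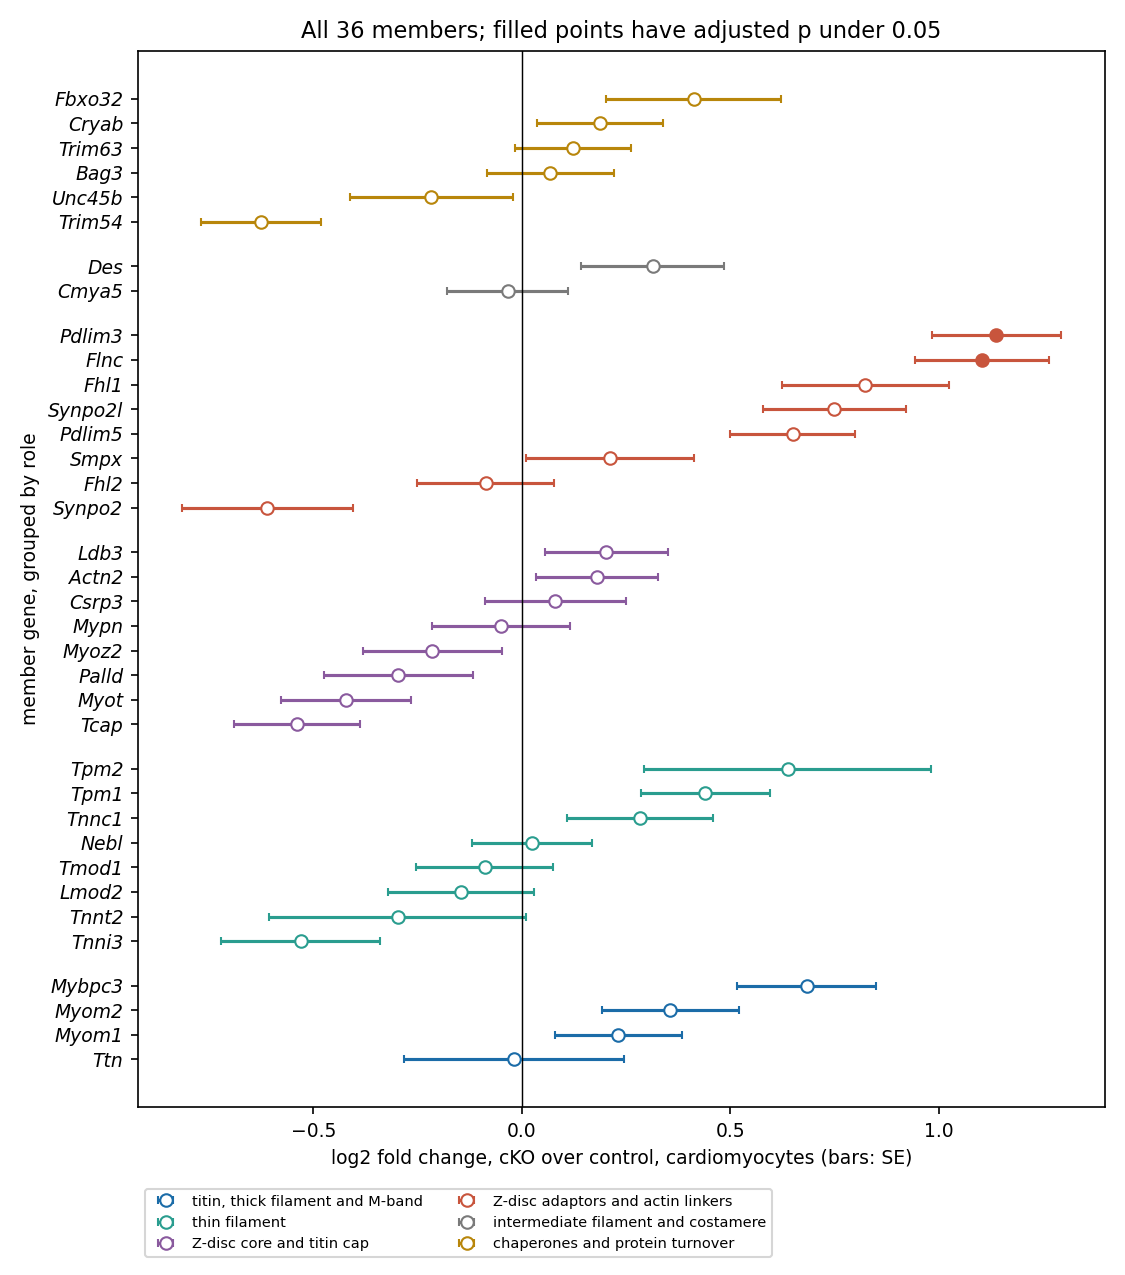
Log2 fold change of cKO over control in cardiomyocytes for all 36 genes (horizontal axis), grouped by role (vertical axis, colours); bars are SE and filled points have an adjusted p under 0.05 by edgeR. Pdlim3 (1.14) and Flnc (1.10) are the filled points, and of the 8 Z-disc adaptors 5 lie between 0.65 and 1.14 while Synpo2 lies at -0.61.

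The Z-disc adaptors and actin linkers held both called genes. Of these 8 genes 2 rose, 0 fell and 6 did not pass, and their median log2 fold change was 0.70. At an unadjusted p under 0.05 there were 5 higher genes and 1 lower one, and DESeq2 called 5 of the 8, with 0 lower in cKO. Pdlim3 encodes a PDZ and LIM domain protein that binds alpha-actinin at the Z-disc. It lies on chromosome 8, from 45885461 to 45919548 on the plus strand (GENCODE M21, GRCm38). Its level was 64.7 and 53.3 CPM in control 1 and 2 and 129 CPM in each cKO library. Both cKO libraries stood above both controls, and the log2 fold change was 1.14 (SE 0.15, adjusted p = 0.0076). Flnc encodes filamin C, the muscle filamin that crosslinks actin at the Z-disc and the membrane, and lies on chromosome 6 from 29433256 to 29461883 on the plus strand. Its level was 105 and 112 CPM in control and 205 and 262 CPM in cKO. The groups did not overlap, and the log2 fold change was 1.10 (SE 0.16, adjusted p = 0.010).

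More nuclei also had a UMI of these genes. Pdlim3 was detected in 14.3% and 14.8% of control and 31.8% and 34.5% of cKO cardiomyocytes, at median depths of 3161 and 3966 against 4314 and 5290 UMIs. After each nucleus was thinned to 1500 UMIs, which left out 128 and 157 control and 144 and 189 cKO nuclei, the shares were 7.44% and 6.23% against 14.7% and 16.1%. In endothelial nuclei thinned the same way, of which only 48 to 1065 per library were deep enough, Pdlim3 was detected in 8.33% and 5.21% of control and 2.46% and 3.57% of cKO nuclei. Before thinning, the endothelial shares were 2.84% to 3.87% at median depths of 994 to 1669 UMIs. The thinned control shares in cardiomyocytes lay within the range of the control endothelial shares, and the cKO shares lay above them. That range rests on only 48 and 211 control endothelial nuclei. In thinned fibroblasts, Pdlim3 was detected in 12% and 8.84% of control and 17.4% and 21.7% of cKO nuclei, above the cardiomyocyte share in each library. Flnc was detected in 13.3% and 13.7% of the thinned control cardiomyocytes and in 20.4% and 24.5% of the cKO ones (23.6%, 29.4%, 43.6% and 52.4% before thinning, for control 1, control 2, cKO 1 and cKO 2), against 2.08% to 4.91% of thinned endothelial nuclei.

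The other adaptors did not pass the adjusted test. Synpo2l, a synaptopodin relative that binds alpha-actinin, was at 42.4 and 45.6 CPM in control and 83.0 and 65.6 CPM in cKO (log2 fold change 0.75, SE 0.17, adjusted p = 0.061). Pdlim5, a PDZ and LIM domain protein that ties kinases to the Z-disc, was at 1249 and 1354 CPM in control and 2015 and 2069 CPM in cKO (0.65, SE 0.15, adjusted p = 0.064). Fhl1, a LIM-domain protein that binds titin, was at 61.6 and 50.1 CPM in control and 116 and 81.7 CPM in cKO (0.82, SE 0.20, adjusted p = 0.078). For Synpo2l, Pdlim5 and Fhl1 both cKO libraries stood above both controls. Synpo2, which encodes myopodin, an actin-bundling Z-disc protein, stood lower in cKO, at 689 and 936 CPM in control and 450 and 614 CPM in cKO (-0.61, SE 0.21, adjusted p = 0.21), and its groups did not overlap either. Fhl2, the LIM protein that in the heart binds titin and other proteins of the sarcomere, gave many UMIs, 6484 and 6513 CPM in control and 5960 and 6280 CPM in cKO (-0.087, SE 0.16, adjusted p = 0.89). Smpx, a small muscle protein gene on the X chromosome, had groups that overlapped and a log2 fold change of 0.21.

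**Figure D2:**
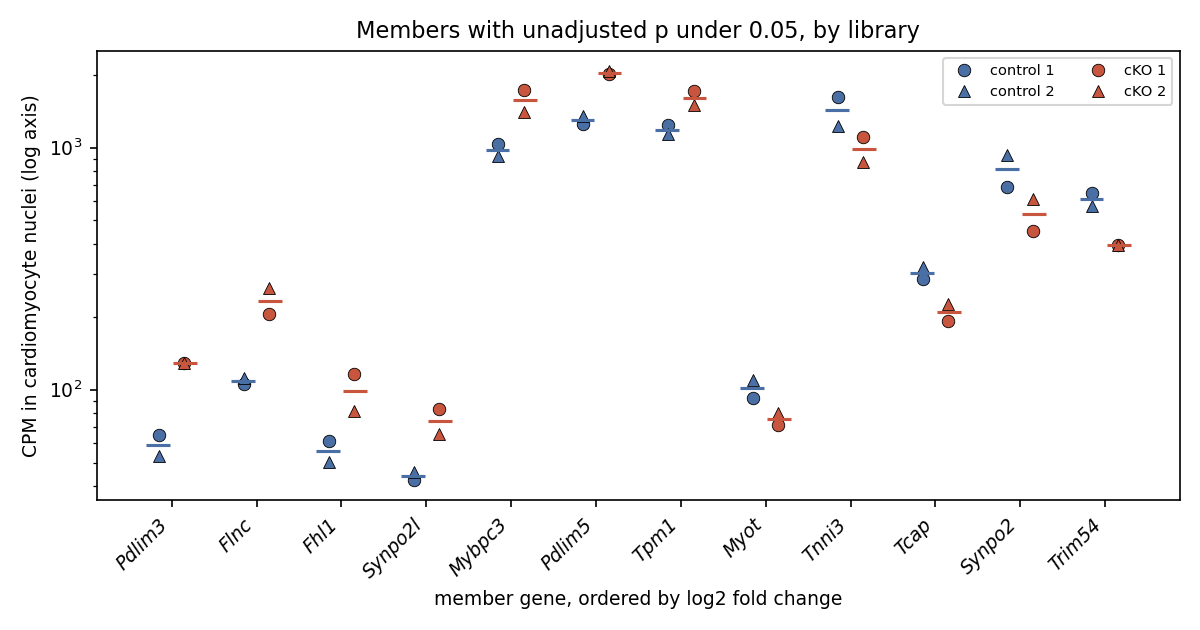
CPM in cardiomyocyte nuclei (vertical axis, log scale) for the 12 genes with an unadjusted p under 0.05, ordered by fold change; circles are replicate 1 and triangles replicate 2, and short lines are group means of 2 libraries. The groups do not overlap for any of the 12, with cKO higher for 7 and lower for 5. The choice by a low p favours such genes, and 43.4% of all genes tested do not overlap.

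Of the 4 genes of titin, the thick filament and the M-band, 0 passed the adjusted test, 1 had an unadjusted p under 0.05, and DESeq2 called 1, Mybpc3. Mybpc3 encodes cardiac myosin-binding protein C, which sits on the thick filament and tunes crossbridge cycling. It was at 1031 and 919 CPM in control and 1730 and 1403 CPM in cKO. The groups did not overlap (0.68 on the log2 scale, SE 0.17, adjusted p = 0.079). The M-band genes Myom1 and Myom2, which encode the myomesins that crosslink thick filaments, also lay above both controls in both cKO libraries, with log2 fold changes of 0.23 and 0.36. Ttn, the gene of titin, was at 11987 and 18461 CPM in control 1 and 2 and at 12226 and 17824 CPM in cKO 1 and 2. Its libraries differed by replicate number and not by group, and the log2 fold change was -0.019 (SE 0.26, adjusted p = 0.99).

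The thin filament genes went in both directions. Of the 8 genes 0 passed the adjusted test and DESeq2 called 0, 2 had an unadjusted p under 0.05, and the log2 fold changes ran from -0.53 to 0.64 with a median of -0.033. Tpm1, the main striated-muscle tropomyosin, was at 1239 and 1134 CPM in control and 1714 and 1506 CPM in cKO (log2 fold change 0.44, SE 0.16, adjusted p = 0.24). Tnni3, the inhibitory subunit of cardiac troponin, was at 1621 and 1232 CPM in control and 1105 and 870 CPM in cKO (-0.53, SE 0.19, adjusted p = 0.25). Tpm1 and Tnni3 were the thin filament genes whose groups did not overlap. Tnnt2, the troponin subunit that binds tropomyosin, was at 17746 and 10218 CPM in control 1 and 2 and at 14124 and 8633 CPM in cKO 1 and 2 (-0.30, SE 0.31, adjusted p = 0.76). As for Ttn, replicate 1 and replicate 2 of Tnnt2 lay further apart than the groups did. Tpm2, at 8.13 to 20.4 CPM, had the widest error of the list (log2 fold change 0.64, SE 0.34).

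In the Z-disc core and titin cap group, 0 of 8 genes passed the adjusted test, DESeq2 called 0, and 2 had an unadjusted p under 0.05, both lower in cKO. Tcap, which encodes telethonin, the cap that joins titin molecules at the Z-disc, was at 285 and 321 CPM in control and 193 and 225 CPM in cKO (log2 fold change -0.54, SE 0.15, adjusted p = 0.12). Myot, the gene of myotilin, an actin and alpha-actinin binding protein, was at 92.5 and 110 CPM in control and 71.2 and 80.1 CPM in cKO (-0.42, SE 0.16, adjusted p = 0.26). Neither gene had overlapping groups. Palld, the palladin gene, was also below both controls in both cKO libraries, at -0.30. Actn2 and Ldb3, the genes of alpha-actinin-2 and of its partner cypher, stood above both controls by 0.18 and 0.20, and Csrp3, Myoz2 and Mypn overlapped.

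Desmin and myospryn make up the intermediate filament and costamere pair. Des, the muscle intermediate filament, was above both controls in both cKO libraries, by 0.31 on the log2 scale (SE 0.17, adjusted p = 0.47). Cmya5, whose product myospryn anchors at the costamere and Z-disc, overlapped between groups, at 716 and 794 CPM in control and 727 and 747 CPM in cKO.

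Among the 6 chaperone and protein turnover genes 0 passed the adjusted test, 1 had an unadjusted p under 0.05, and DESeq2 called the same gene, Trim54, as lower in cKO. Trim54 encodes MuRF3, a muscle RING-finger ubiquitin ligase that associates with microtubules and the Z-disc. It was at 651 and 572 CPM in control and at 396 and 397 CPM in cKO (log2 fold change -0.62, SE 0.14, adjusted p = 0.064), and the groups did not overlap. Trim63, the gene of MuRF1, stood slightly above both controls in cKO, at 521 and 548 against 572 and 592 CPM (0.12, SE 0.14, adjusted p = 0.78). Fbxo32, which encodes atrogin-1, the F-box protein of muscle wasting, had a log2 fold change of 0.41 (SE 0.21) with overlapping groups. Cryab, Bag3 and Unc45b, which encode a small heat-shock protein, its co-chaperone partner in protein quality control and the myosin chaperone, overlapped between groups, at 0.19, 0.068 and -0.22.

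Other genes of the same structures, from lists of 50 further sarcomere and Z-disc genes and 53 further chaperone and turnover genes, were tested in the same fit. Of these, 86 passed the expression filter, 4 rose and 1 fell, where 2.84% of all genes tested were called (1.29% higher and 1.55% lower in cKO). The median log2 fold change of the 86 was 0.25, against 0.0029 over all genes tested. Ankrd1, a muscle ankyrin repeat protein that binds titin, was at 672 and 524 CPM in control and 1874.5 and 1605 CPM in cKO (1.54, SE 0.18, adjusted p = 0.0041). Its relative Ankrd23 rose by 0.71 (adjusted p = 0.034) and Xirp1, an actin-binding protein of the intercalated disc, by 0.91 (adjusted p = 0.034). Klhl38, a kelch protein of striated muscle, fell by 0.72 on the log2 scale (adjusted p = 0.027). Of the 35 tested sarcomere and Z-disc genes 3 rose. With 1 library left out, the log2 fold change ran from 1.37 to 1.73 for Ankrd1 and from 0.63 to 0.80 for Ankrd23. It ran from 0.66 to 1.12 for Xirp1 and from -0.74 to -0.71 for Klhl38. Ankrd1 kept its call without each library in turn, while Xirp1 lost it without cKO 2, Klhl38 without cKO 1, control 2 or cKO 2, and Ankrd23 without control 1, cKO 1 or control 2.

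Within the 3 large cardiomyocyte clusters, each of which had at least 50 nuclei in every library, the genes fell into different patterns. These values are a description with no test, since only levels per cluster and library were compared and 2 of the 36 genes, Tpm2 and Fhl2, were among the variable genes that formed the clusters. In the Nppb cluster the cKO libraries lay above both controls for 11 of the 36 genes and below for 6 (22.6% and 16.7% of all genes), in the Pfkfb1 cluster for 11 and 6 (19% and 20.9%), and in the Cntn5 cluster for 15 and 5 (19.2% and 18.3%). In the Nppb cluster Pdlim3 was at 195 and 128 CPM in control and 143 CPM in each cKO library, and Flnc at 240 and 248 CPM against 232 and 320 CPM, so that both overlapped there. When the 36 genes and the further lists were left out of the variable genes, the counterpart of this cluster still had overlapping Pdlim3 levels, but Flnc was at 199 and 194 CPM in control and 223 and 274 CPM in cKO, without overlap. In the Pfkfb1 cluster Pdlim3 was at 38.4 and 38.9 CPM in control and 74.9 and 61.1 CPM in cKO, and in the Cntn5 cluster at 60.3 and 51.7 against 109 and 116 CPM. Flnc was higher in cKO in both of these clusters, at 82.9 and 80.05 against 97.4 and 99.4 CPM and at 94.5 and 113 against 143 and 149 CPM, but by less than in the whole class. For both genes the control nuclei of the Nppb cluster had more than the control nuclei of the Pfkfb1 and Cntn5 clusters.

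**Figure D3:**
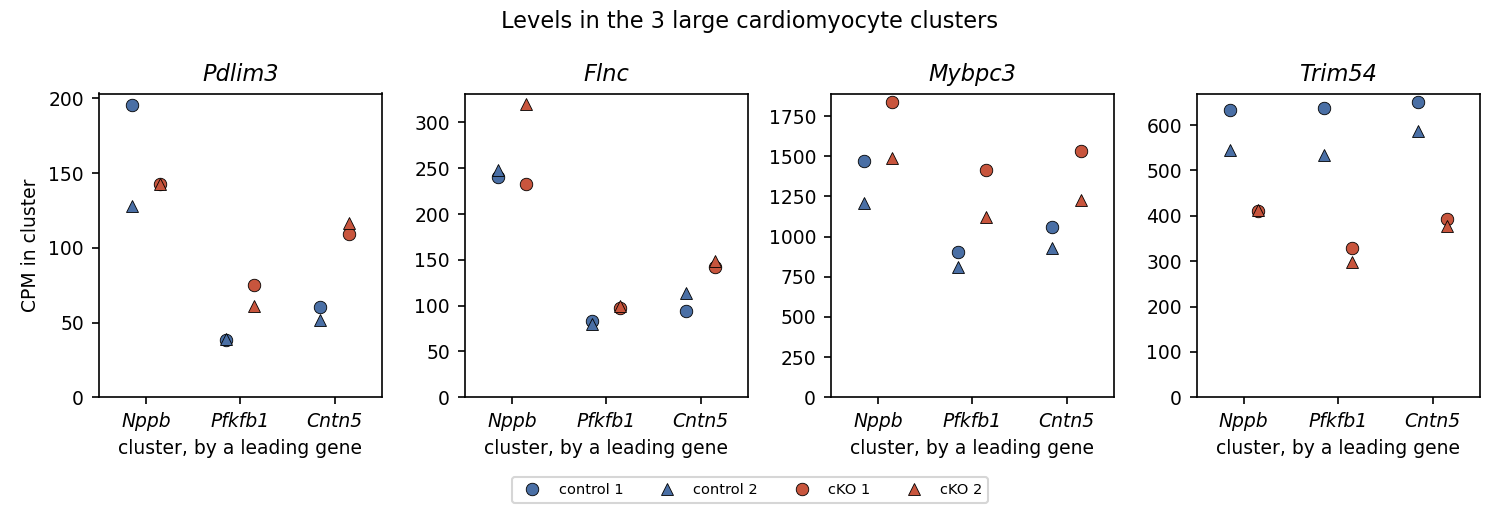
CPM of Pdlim3, Flnc, Mybpc3 and Trim54 (vertical axes, from 0) in the 3 large cardiomyocyte clusters, each named by 1 of its leading genes, with 1 point per library. Pdlim3 and Flnc overlap between groups in the Nppb cluster, while Mybpc3 is higher and Trim54 lower in both cKO libraries in every one of the 3 clusters.

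Trim54 and Mybpc3 differed between the groups in every one of these clusters. Trim54 was at 633 and 545 CPM in control and 409 and 413 CPM in cKO in the Nppb cluster, at 638 and 534 against 330 and 298 CPM in the Pfkfb1 cluster, and at 652 and 587 against 393 and 378 CPM in the Cntn5 cluster. Mybpc3 was at 1468 and 1211 against 1839 and 1490 CPM in the Nppb cluster and at 901 and 807 against 1412 and 1123 CPM in the Pfkfb1 cluster. In all 3 clusters the cKO libraries lay above both controls for 7 genes, Fbxo32, Ldb3, Mybpc3, Myom1, Myom2, Pdlim5 and Tpm1, and below them for 2, Tcap and Trim54. Of all genes tested in cardiomyocytes, 3.27% lay above and 2.91% below in all 3. Synpo2l, whose cKO libraries lay above both controls in the whole class, overlapped between groups in each of these 3 clusters, at 83.5 and 96.7 against 96.7 and 79.0 CPM in the Nppb cluster and at 38.0 and 38.9 against 37.5 and 40.8 CPM in the Pfkfb1 cluster. This overlap depended on the clustering. With the lists left out of the variable genes Synpo2l was at 58.9 and 62.4 against 88.0 and 69.7 CPM in the counterpart of the Nppb cluster and at 43.5 and 44.5 against 60.8 and 54.0 CPM in that of the Pfkfb1 cluster, without overlap in either. Trim54 stayed below and Mybpc3 above both controls in both counterparts.

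The test was also run on cardiomyocytes without the Nppb cluster, which an earlier form of the rule for naming clusters had left unnamed together with 3 small clusters. Pdlim3 still rose by 1.12 (edgeR adjusted p = 0.0035) and Flnc no longer passed, at 0.52 (adjusted p = 0.21). Trim54 now fell, by 0.73 on the log2 scale (adjusted p = 0.033). With these nuclei 2 of the 36 genes were called, against 1.31% of all genes tested, and Synpo2l stood at 0.055. Of the 5 called genes of the further lists, Ankrd1 remained, at 0.76 (adjusted p = 0.026). This alternative was added after the data were seen.

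In suspensions of nuclei, free RNA of abundant cells can be counted in any nucleus, so levels in the other classes are given beside those of Myh6. Each of the 4 other classes had its own tests of the 36 genes, 34 in fibroblast, 35 in endothelial, 33 in mural and 34 in macrophage nuclei. Over all these tests together there were 3 calls, and 1.4% of the tests of all genes in these classes were called. For the 36 genes, the median level in other classes as a percent of the cardiomyocyte level reached 12.3% among fibroblasts, 14.8% among endothelial, 17.4% among mural (vessel wall) and 12.9% among macrophage nuclei. Myh6, the cardiac myosin heavy chain gene and no member of the list, stood at 7.94% to 12.5% of its cardiomyocyte level in fibroblasts. The genes over 50% of the cardiomyocyte level in every library were Tpm2, Fhl1 and Pdlim3 in fibroblasts, Unc45b in endothelial nuclei, and Tpm1, Tpm2, Fhl1 and Pdlim3 in mural nuclei. Pdlim3 in fibroblasts was at 111% to 194% of the cardiomyocyte level, Tpm2 in mural nuclei at 709% to 1188%, and Unc45b in endothelial nuclei at 179% to 269%.

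**Figure D4:**
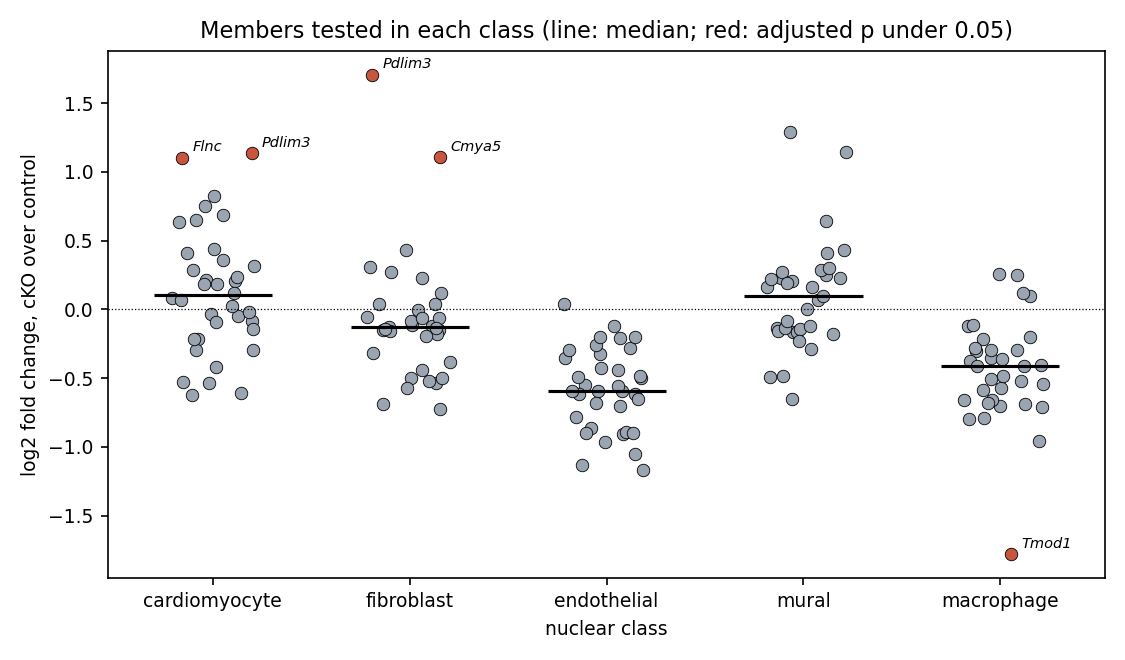
Log2 fold change of cKO over control (vertical axis) for the genes tested in each nuclear class (horizontal axis; points are spread sideways for legibility), with the median as a line and genes with an adjusted p under 0.05 in red. Pdlim3 is red in cardiomyocytes (1.14) and fibroblasts (1.71), Flnc in cardiomyocytes, Cmya5 in fibroblasts and Tmod1 in macrophages, and most endothelial and macrophage points lie below 0.

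In fibroblasts 2 of the 34 tested genes rose and 0 fell (3.66% of all genes tested were called there, 2.27% higher and 1.39% lower). At an unadjusted p under 0.05 there were 5, of which 3 were lower (13.7% of all genes had such a p), and DESeq2 called 0 lower. Of the 34 log2 fold changes 25 were below 0, with a median of -0.13, against 0.010 over all genes tested. Pdlim3 was at 71.1 and 71.3 CPM in control and 203 and 260 CPM in cKO fibroblasts (log2 fold change 1.71, SE 0.23, adjusted p = 0.0014). Cmya5 was at 91.7 and 106 CPM in control and 225 and 209 CPM in cKO (1.11, SE 0.22, adjusted p = 0.012), while Myh6 in the same nuclei was lower in cKO, at 1978 and 1504.5 against 1589 and 1155 CPM. Fibroblasts and cardiomyocytes come from the same libraries. As among cardiomyocytes, different clusters held most fibroblasts of each group. A cluster with Col6a6 and Scara5 among its leading genes held 88.4% and 93.7% of the control and 13.3% and 16.7% of the cKO fibroblasts, and a cluster led by Cilp, Nox4 and Postn held 11.4% and 6.21% against 85.9% and 75.5%. Within these clusters, looked at after the values above were seen and with no test, Pdlim3 was at 68.5 and 62.7 against 114 and 107 CPM in the Col6a6 cluster and at 82.5 and 116 against 216 and 287 CPM in the Postn cluster. Cmya5 was at 70.7 and 96.2 against 247 and 154 CPM and at 200.5 and 152 against 226 and 216 CPM. Both genes lay above both controls in both clusters, on as few as 12 UMIs of Pdlim3 in the Col6a6 cluster of cKO 1 and 7 in the Postn cluster of control 1. Other genes of the list, among them Ttn, Actn2, Ldb3 and Nebl, also lay above both controls in the Col6a6 cluster. Pdlim3 and Cmya5 were therefore not the only genes of the list above both controls there. Sums of cKO 1 in that cluster were small, at 36 UMIs of Actn2 and 22 of Nebl. No share of all genes is given for these clusters, so the non-overlap has no measure beside it. In the Postn cluster Ttn, Actn2, Ldb3 and Nebl lay below both controls. With nuclei limited to 1% mitochondrial UMIs the Cmya5 difference in fibroblasts did not pass, at 0.58 (adjusted p = 0.72).

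In macrophages 1 of 34 tested genes was called (1.24% of all genes, 0.461% lower in cKO), and 4 had an unadjusted p under 0.05 (11.1% of all genes). Tmod1, the tropomodulin that caps the pointed ends of thin filaments, was at 167 and 146 CPM in control and 28.7 and 60.5 CPM in cKO macrophages (log2 fold change -1.78, SE 0.36, adjusted p = 0.017). Its level in cardiomyocytes was 163 and 202 CPM in control. Myh6 in macrophages was also lower in cKO, at 2624 and 1587 CPM in control (16.5% and 11.0% of its cardiomyocyte level) and 1360 and 1283 CPM in cKO (7.74% and 8.82%), and 30 of the 34 genes had a log2 fold change below 0, with a median of -0.41. The part of free cardiomyocyte RNA in these values was not tested. Without cKO 1 the difference was -1.36 (adjusted p = 0.14). In endothelial nuclei 0 of 35 genes passed edgeR's adjusted test (0.0386% of all genes), 14 had an unadjusted p under 0.05 (9.37% of all genes), and DESeq2 called 3 of the 24 to which it gave an adjusted p (0.902% of all genes). Of the 35 log2 fold changes 34 were below 0, with a median of -0.59, while 50.4% of all genes were above 0. Without control 2 edgeR called 5 of 36 genes, all lower (1.14% of all genes). Myh6 moved with them, at 23.2% and 13.9% of its cardiomyocyte level in the control endothelial nuclei and 11.0% and 9.69% in the cKO ones, and its part in these values was not tested. In mural nuclei 0 of 33 genes passed (0.118% of all genes), 3 had an unadjusted p under 0.05 (5.08% of all genes) and DESeq2 called 0. Pdlim3 in mural nuclei was at 66.7 and 72.1 CPM in control and 158 and 154 CPM in cKO (1.15, SE 0.31, adjusted p = 0.24).

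Whether an effect differed between cardiomyocytes and fibroblasts was tested directly as an interaction in edgeR, with the library as a term. Of the 36 genes 6 passed, against 6.01% of all 16332 genes tested. The cardiomyocyte effect was the higher one for Mybpc3 (by 0.76, SE 0.17, adjusted p = 0.0012), Trim63 (0.75, adjusted p = 0.014), Myom1 (0.62, adjusted p = 0.0071) and Tpm1 (0.46, adjusted p = 0.034). It was the lower one for Cmya5 (-1.18, SE 0.16, adjusted p = 1.9e-07) and Synpo2 (-0.69, SE 0.17, adjusted p = 0.0050). Myom1 was at 2140 and 2236 CPM in control and 2587 and 2551 CPM in cKO cardiomyocytes, and at 318 and 246 against 217 and 194 CPM in fibroblasts. Trim63 in fibroblasts was at 71.1 and 61.7 CPM in control and 37.9 and 42.2 CPM in cKO. The fibroblast level of Myom1, Mybpc3 and Trim63 was 6.61% to 21.2% of the cardiomyocyte level, beside 7.94% to 12.5% for Myh6. For the other genes that passed it lay above the Myh6 range, at 25.4% to 38.9% for Tpm1, 12.9% to 30.9% for Cmya5 and 13.3% to 24.6% for Synpo2. Pdlim3 and Flnc did not differ past the threshold between the classes (-0.56, SE 0.18, adjusted p = 0.051, and 0.61, SE 0.23, adjusted p = 0.11). The fibroblast side of this test carries the shift between fibroblast clusters given above, and the genes differed in how they stood within those clusters. Mybpc3 was higher in cKO in the Col6a6 cluster, at 183 and 131 against 276 and 192 CPM, and overlapped in the Postn cluster. Trim63, Tpm1 and Synpo2 overlapped in the Col6a6 cluster and were lower in both cKO libraries in the Postn cluster, and Myom1 overlapped in both clusters. In the Postn cluster many other genes of the list, among them Ttn, Tnnt2, Nebl and Actn2, were also lower in both cKO libraries. Pdlim3 and Cmya5 were higher there. Synpo2l also stood higher, but at the floor, on 0 UMIs in each control library against 6 and 19 in cKO 1 and 2. Control sums in that cluster were small, at 11 and 14 UMIs of Trim63 and 18 and 30 of Synpo2. No share of all genes is given for these clusters. Only the Cmya5 difference passed without each library in turn. The Cmya5 effect then ran from -1.26 to -1.12, and that of Synpo2 from -0.86 to -0.34. Those of Mybpc3, Myom1, Trim63 and Tpm1 ran from 0.55 to 1.05, 0.44 to 0.86, 0.66 to 0.92 and 0.41 to 0.51.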

How the data were processed

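The deposited files hold raw UMI counts, 1 matrix of genes by nuclei per library, without normalization, per the file headers and their whole numbers. The submitters' processing notes name mm10 as the build. Aligner, counting program, annotation and strand handling: not given in the sources used here. Reads of overlapping or antisense genes may have been counted for either. Coordinates come from GENCODE M21, matched by identifier.

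Nuclei with at least 300 genes, at least 500 UMIs and at most 5% mitochondrial UMIs were kept, without the 0.5% of barcodes with the most UMIs. Scrublet (scanpy 1.11.5, expected share 6%) marked doublets; where its threshold marked under 0.5%, the highest scores were removed (6.48% to 6.80% of 3 libraries, 13.5% of cKO 2). Leiden clustering (leidenalg 0.10.2, resolution 1, 2000 variable genes, 30 components, 15 neighbours) gave 26 clusters. A cluster was named where at least 3 markers, each in at least 10% of its nuclei, stood over 2 times the median cluster and at no less than 25% of the highest cluster. It was left unnamed where enough markers of an unrelated class also passed or where another class held more of its leading genes. A shallow cluster with no marker among its leading genes was also left unnamed. This rule was revised 2 times after the clusters were seen, and before tests were run here: the first form, over 2 times all other nuclei, left the 2245 nuclei of the Nppb cluster unnamed. The reference levels used for nuclei with at most 1% mitochondrial UMIs and for libraries clustered alone were also chosen after first runs. About 5.06% to 5.63% of nuclei stayed unnamed, in clusters with markers of 2 classes. The largest of these, with 549 nuclei, had cardiomyocyte as its best match.

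Counts were summed per library and class and tested with edgeR 4.0.16 (R 4.3.3; TMM, filterByExpr, quasi-likelihood test); DESeq2 1.42.0 was an alternative, and the tests were checked on simulated counts. CPM of classes are TMM-scaled; CPM of clusters, Esr1, Myh6, marker sums and the sum of the 36 genes use raw totals. SEs were obtained by dividing the size of a log2 fold change by the root of its F statistic. An exact permutation of 2 against 2 libraries cannot reach 0.05, so none is given.

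The genes, role groups and further lists were chosen with earlier results of these data known. Genes are given per library where they passed in cardiomyocytes, in another class or in the interaction, had an unadjusted p under 0.05 in cardiomyocytes, or were among the 3 with most CPM (Ttn, Tnnt2, Fhl2), which is no comparison per length. The promoters and the genes followed by cluster or by share of nuclei were chosen after their values were seen. The values of 1 gene of the further lists are not reported here.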

Additional observations from a re-analysis of the deposited data

Results flagged for a closer look

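For 6 genes the difference between cKO and control was not the same in cardiomyocytes and fibroblasts in the interaction test. The effect in cardiomyocytes minus that in fibroblasts was 0.76 for Mybpc3, 0.62 for Myom1, 0.75 for Trim63, 0.46 for Tpm1, -1.18 for Cmya5 and -0.69 for Synpo2 on the log2 scale. For Cmya5 the fibroblast change was 1.11 and the cardiomyocyte change -0.034. For Synpo2 the cardiomyocyte change was -0.61 and the fibroblast change -0.0033. Mybpc3 and Tpm1 had cardiomyocyte changes of 0.68 and 0.44 and fibroblast changes of -0.14 and -0.064. For Myom1 and Trim63 the fibroblast change was the larger, at -0.44 and -0.69 against 0.23 and 0.12. Different clusters held most fibroblasts of each group: 88.4% and 93.7% of the control against 13.3% and 16.7% of the cKO fibroblasts lay in 1 cluster. In fibroblasts 25 of the 34 tested genes had a log2 fold change below 0, with a median of -0.13, and Myh6 was also lower in cKO. The part of the cluster shift and of free cardiomyocyte RNA in the 6 differences was not tested. With groups of 2 libraries no single library can be called an outlier by a gap test.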

How the results depend on the processing

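Pdlim3 kept its call in cardiomyocytes under the 16 alternatives that changed the nuclei or the fit (log2 fold change 1.00 to 1.28) and in fibroblasts under 15 (1.47 to 1.87), and Flnc under 15 of 16 (0.52 to 1.28, lost under the first naming form). The second naming form left these nuclei as they were, and so did the first for fibroblasts. The 36 genes gave 8 calls in cardiomyocytes without an expression filter, 27 with the replicate block and 7 with DESeq2, and the further lists gave 10, 44 and 7. The shares of all genes called in these settings were 2.17%, 24.6% and 3.93%. The other classes gave 29 calls with the replicate block, 6 with DESeq2, 7 without doublet removal, 6 with equal doublet shares, 6 with each library clustered alone and 10 under the first naming form, where the further lists gave 1. The block called 15.2% of all genes in fibroblasts, 8.63% in endothelial, 1.62% in mural and 7.67% in macrophage nuclei. Under the other settings just named, at most 4.14% of all genes were called in any of these classes. Leaving out 1 library gave 2 to 7 calls in cardiomyocytes, 3 to 5 in the further lists, 2 to 8 in the other classes (8 without control 2) and 2 to 5 interactions; the interaction also gave 12 without doublet removal and 0 at 1% mitochondrial UMIs (6 of 36 with an unadjusted p under 0.05). Without doublet removal the interaction called 6.90% of all genes, and at 1% mitochondrial UMIs 0.611%. The cause was not tested. Replicate numbers are shared by the labels without a stated litter or day; same-numbered libraries deviated together (correlation 0.47 in cardiomyocytes and 0.20 to 0.35 in the other classes), and the block called 24.6% of all genes in cardiomyocytes. Of its 27 calls 17 were higher and 10 lower in cKO, the lower ones including Tnnt2 (-0.29), Tnni3 (-0.53), Tcap (-0.54), Trim54 (-0.62) and Synpo2 (-0.61). Changes of sign were seen for 5 genes that were not called. Leaving out 1 library gave -0.32 to 0.32 for Ttn (0.23 without cKO 1), -0.70 to 0.16 for Tnnt2 (0.0077 without cKO 2), -0.23 to 0.075 for Tmod1 in cardiomyocytes (0.034 without cKO 1) and -0.10 to 0.041 for Cmya5 there, and the first naming form gave 0.040 for Ttn, 0.14 for Cmya5 and 0.036 for Fhl2. Tmod1 in macrophages also missed the threshold with a higher minimum of UMIs per nucleus (-1.77, adjusted p = 0.071) and with libraries clustered alone (-1.67, adjusted p = 0.062). Mural and macrophage nuclei could not be fitted at 1% mitochondrial UMIs, so the other classes have no count there. DESeq2 and the block were not run for the interaction. In the Nppb cluster, or its counterpart when the listed genes were left out of the clustering, 17 and 19 genes had groups that did not overlap. Of all genes tested, 22.6% lay above and 16.7% below both controls in the Nppb cluster. No such share is given for the counterpart, so its count has no measure beside it. Intervals of counts cover counting error only, and depth limits low genes such as Tpm2 most.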
